A study of Mus musculus with 82 samples.

Results

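The Hox genes encode homeodomain transcription factors that stand side by side on the chromosome in 4 clusters, Hoxa, Hoxb, Hoxc and Hoxd. Accessible chromatin at these clusters was followed here during the reprogramming of mouse fibroblasts toward pluripotency. The 38 genes described were taken from the RefSeq annotation of the GRCm38 mouse genome (10 in Hoxa, 10 in Hoxb, 9 in Hoxc and 9 in Hoxd), out of 21887 protein-coding genes on chromosomes 1 to 19, X and Y. Each cluster was the stretch between the outermost ends of its genes, extended by 20 kb on both sides. A gene was marked in a list when a peak lay within 1 kb of either end of its annotated span, called a gene-end peak below. The rule that chose the 38 genes used no measured value, though it was set with earlier results of these data known.

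Of the 82 samples of the series, 8 came from ATAC-seq, an assay in which the Tn5 transposase cuts open chromatin. In all 4 ATAC-seq groups, mouse embryonic fibroblasts of the OG2 line (OG2-MEFs) at passage 2 had been infected with retroviruses for Oct4, Sox2, Klf4 and c-Myc (OSKM). The D209N groups also received retroviral RNaseH1(D209N), a form of ribonuclease H1 with a substitution at the catalytic site, and the Flag groups are labelled FLAG and were read as the control arm of the series' design. The groups were OSKM with D209N at day 7, OSKM with Flag at day 7, OSKM with D209N at day 3 and OSKM with Flag at day 3, with 2 libraries labelled per group. The cells were grown in iCD1 medium or mESC medium with vitamin C, and the labels do not say which of these media each ATAC-seq library had. Each library pools cells that may be at different stages of conversion. Bulk ATAC-seq does not tell fewer open cells from a weaker opening in each cell.

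Each group had 1 peak list with chromosome, start, end and peak name, and no score, read depth or replicate column. All peak names carry the tag of replicate 1, so a list may come from that library alone, and whether replicate 2 entered is not stated. There was therefore no spread between replicates and no test could be made, so every comparison below is a description of 4 lists. The lists held 40452 peaks for D209N and 42439 for Flag at day 7, and 29189 for D209N and 36375 for Flag at day 3. Shares carry Wilson 95% intervals, which cover counting error over genes only. Peaks within 1 kb of an end were listed in all 4 lists at the fibroblast genes Col1a1, Col1a2, Twist1, Pdgfrb and S100a4. Of the 10 fibroblast markers, 7 (D209N) and 6 (Flag) were marked at day 7, and 6 in each arm at day 3, and Thy1 had no peak in any list. Of the 6 epithelial markers 5 were marked in each arm at day 7, against 2 (D209N) and 3 (Flag) at day 3. Of the 6 pluripotency markers 2 (D209N) and 1 (Flag) were marked at day 7, and 1 (D209N) and 2 (Flag) at day 3. Markers of endothelium were marked at 2 of 4 genes and of blood at 1 of 4 genes in every list, of muscle at 1 of 3 genes in each arm at day 7 and 0 at day 3, and of neural cells at 2 of 4 genes in each arm at day 7 and 1 at day 3. The part of these cell types in the Hox results was not tested.

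In the embryo, Hox genes are switched on in the order in which they lie on the chromosome, and the gene's place in the cluster matches the place along the body axis where it acts. Paralogues 1 to 4 pattern the hindbrain and neck, paralogues 5 to 8 the trunk, and paralogues 9 to 13 the lumbar to tail regions, the limbs and the urogenital tract. Fibroblasts keep a Hox code of the body site they came from. Hox chromatin is a textbook target of the Polycomb and Trithorax groups, and its promoters are rich in CpG dinucleotides.

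The promoters on which the results turn are given first. RefSeq promoter windows of GRCm38.p6, which run over 300 bases (250 before the start to 50 after it), were held for 22 of the 38 genes in 24 windows. The 6 windows below were chosen to show 1 or more cases of each behaviour, and each is written 5′ to 3′ on the gene's own strand with CpG dinucleotides in capitals. Hoxa5 (chr6:52204538-52204837, minus strand) and Hoxd10 (chr2:74691641-74691940, plus strand) overlapped a peak in all 4 lists. Hoxa13 (chr6:52260831-52261130, minus strand) overlapped a peak in every list but D209N at day 3. Hoxd13 (chr2:74667975-74668274, plus strand) and Hoxd1 (chr2:74762730-74763029, plus strand) did so in both lists of day 7 and in neither of day 3. Hoxd4 (chr2:74721728-74722027, plus strand) overlapped none.
Hoxa5: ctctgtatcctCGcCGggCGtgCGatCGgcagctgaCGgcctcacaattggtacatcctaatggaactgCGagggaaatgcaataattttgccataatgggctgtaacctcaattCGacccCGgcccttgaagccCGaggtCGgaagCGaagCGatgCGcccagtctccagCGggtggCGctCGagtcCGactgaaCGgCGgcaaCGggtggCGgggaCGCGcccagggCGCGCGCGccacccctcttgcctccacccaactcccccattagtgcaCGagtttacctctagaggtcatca
Hoxd10: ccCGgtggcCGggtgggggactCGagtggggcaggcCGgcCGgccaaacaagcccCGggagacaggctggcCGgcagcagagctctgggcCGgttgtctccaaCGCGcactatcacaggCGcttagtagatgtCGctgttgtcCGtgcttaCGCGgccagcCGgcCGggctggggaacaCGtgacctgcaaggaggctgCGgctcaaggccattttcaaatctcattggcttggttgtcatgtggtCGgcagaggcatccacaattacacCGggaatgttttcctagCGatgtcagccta
Hoxa13: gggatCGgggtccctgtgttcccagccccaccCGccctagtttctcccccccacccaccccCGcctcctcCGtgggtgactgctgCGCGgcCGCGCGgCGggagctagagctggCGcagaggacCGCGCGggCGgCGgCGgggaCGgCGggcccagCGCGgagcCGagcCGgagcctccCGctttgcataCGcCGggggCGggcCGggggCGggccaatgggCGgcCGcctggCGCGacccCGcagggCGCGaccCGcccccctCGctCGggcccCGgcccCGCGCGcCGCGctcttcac
Hoxd13: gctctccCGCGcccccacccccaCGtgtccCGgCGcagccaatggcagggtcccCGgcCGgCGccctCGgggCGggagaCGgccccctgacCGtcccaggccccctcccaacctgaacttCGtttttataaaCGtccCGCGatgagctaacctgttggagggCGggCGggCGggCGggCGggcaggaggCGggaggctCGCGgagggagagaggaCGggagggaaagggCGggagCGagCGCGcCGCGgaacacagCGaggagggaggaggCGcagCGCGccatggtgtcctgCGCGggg
Hoxd1: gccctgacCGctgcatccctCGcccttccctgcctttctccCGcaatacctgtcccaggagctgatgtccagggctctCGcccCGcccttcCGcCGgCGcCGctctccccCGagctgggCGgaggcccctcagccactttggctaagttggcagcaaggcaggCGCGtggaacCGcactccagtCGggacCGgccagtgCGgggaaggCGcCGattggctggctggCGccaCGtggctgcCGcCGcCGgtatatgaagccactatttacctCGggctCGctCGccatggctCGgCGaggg
Hoxd4: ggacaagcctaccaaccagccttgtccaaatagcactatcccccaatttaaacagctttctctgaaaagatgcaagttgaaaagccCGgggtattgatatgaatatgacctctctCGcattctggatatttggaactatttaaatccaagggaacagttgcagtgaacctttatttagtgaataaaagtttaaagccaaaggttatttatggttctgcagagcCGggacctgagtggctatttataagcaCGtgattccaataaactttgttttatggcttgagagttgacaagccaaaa

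The windows of Hoxa13 and Hoxd13 were the densest in CpG, with 45 CpG in Hoxa13 (81.0% G or C) and 37 in Hoxd13 (74.3%). Hoxa5 and Hoxd1 held 29 each and Hoxd10 held 22, while Hoxd4 held 4 (39.7% G or C). Over all member windows the median was 14.5 CpG, against 7.00 over the 32851 windows of the table. The 13 member windows with a peak in any list had a median of 21.0 CpG and 62.0% G or C, and the 11 with none had 9 CpG and 49.7%. The same split over all windows gave 21.0 CpG and 62.0% with a peak, and 3.00 CpG and 47.3% without. Member windows thus divided in the same direction as windows of the genome. Those without a peak held more CpG than such windows of the genome. CpG content did not sort them fully: the Hoxa6 window held 26 CpG and no peak in any list. Among member windows 11 overlapped a peak in D209N and 11 in Flag at day 7 (45.8% each, against 42.5% and 42.9% of all windows), and 5 in D209N and 6 in Flag at day 3 (20.8% and 25.0%, against 35.5% and 38.8%). The letters TGATNNAT, a core bound by Hox proteins with their Pbx partners, were found on either strand in 4 of 24 member windows (16.7%, against 8.85% of all windows), those of Hoxa2, Hoxb1, Hoxb8 and the second start of Hoxd11. Of these 4, the Hoxd11 window alone overlapped a peak, in all 4 lists. The Meis core TGACAG was found in 2 windows, Hoxa2 and Hoxa3 (8.33%, against 19.2%).

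Gene-end peaks were listed at more Hox genes on day 7 than on day 3 in both arms, and at day 3 fewer did in D209N than in Flag. At day 7, 24 of 38 genes were marked in D209N (63.2%, interval 47.3 to 76.6%) and 26 in Flag (68.4%, 52.5 to 80.9%). At day 3, 11 were marked in D209N (28.9%, 17.0 to 44.8%) and 17 in Flag (44.7%, 30.1 to 60.3%). Over all coding genes the shares were 60.4% in D209N and 61.5% in Flag at day 7, and 51.7% in D209N and 55.9% in Flag at day 3. The Hox share was thus near that of all genes at day 7, and below it at day 3 in both arms. At day 3 the interval of D209N lay below the share of all genes and that of Flag held it, but the intervals of the arms overlap. Neighbouring genes can share a peak, which the intervals do not allow for, so they draw no contrast between the arms. With any peak on the gene or within 1 kb of it, the counts were 31 (D209N) and 32 (Flag) at day 7, and 16 (D209N) and 24 (Flag) at day 3. The difference between the arms at day 3 depended on narrow peaks: with peaks under their list's median width left out, 18 (D209N) and 19 (Flag) genes were marked at day 7, and 5 (D209N) and 6 (Flag) at day 3.

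**Figure D1:**
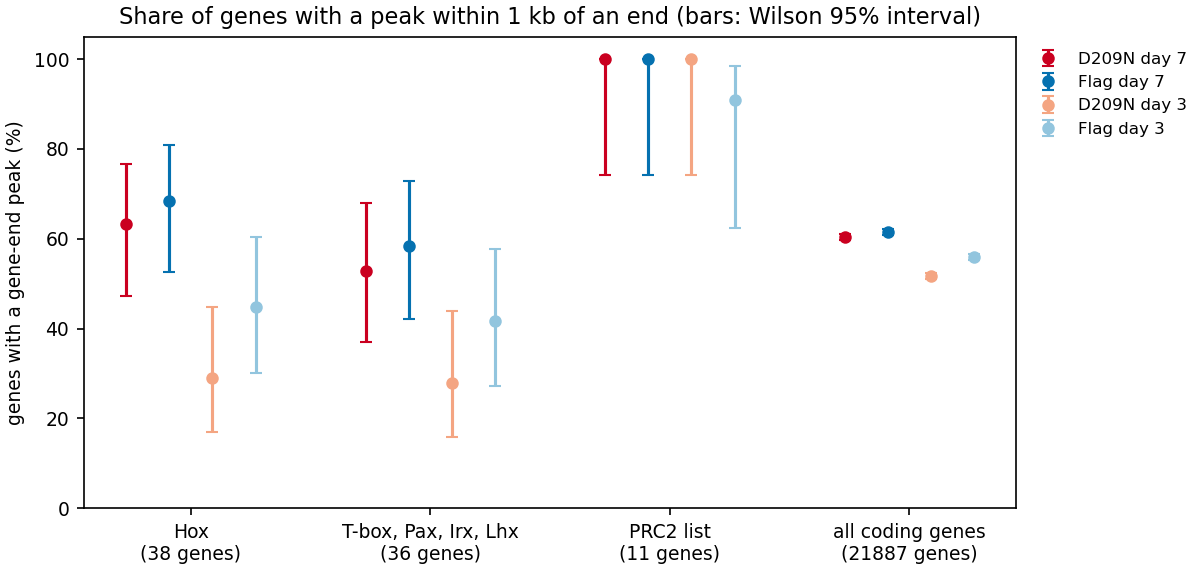
Share of genes with a peak within 1 kb of an end, in percent, for the 38 Hox genes, 36 genes of 4 other transcription factor families, the 11 genes of the PRC2 list and all 21887 coding genes, in the lists of D209N and Flag at day 7 and at day 3. Points are shares and bars are Wilson 95% intervals; the Hox genes lie at 63.2% and 68.4% at day 7 and at 28.9% and 44.7% at day 3, while all coding genes move between 51.7% and 61.5%.

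Between the days Hox genes gained marks and lost none, and losses were rare among all coding genes too. In D209N 13 genes were marked on day 7 but not on day 3 (34.2% of the 38, against 9.02% of all coding genes), and 0 had the reverse (0.320% of all genes). In Flag 9 genes were marked on day 7 but not on day 3 (23.7%, against 6.23%), and 0 had the reverse (0.704%). Genes already marked at day 3 could not be newly marked, so the shares were also taken among unmarked genes: 13 of 27 in D209N (48.1%, against 18.7% of all unmarked genes) and 9 of 21 in Flag (42.9%, against 14.1%). Both arms were therefore above the background, and the arms share no list in these day comparisons. Between the arms at day 3, 1 gene was marked in D209N alone (2.63%, against 0.809%) and 7 in Flag alone (18.4%, against 5.03%). Of the 17 genes marked in Flag at day 3, 7 were unmarked in D209N (41.2%, against 8.99% of all genes marked in Flag). At day 7, 0 genes were marked in D209N alone (0.973% of all genes) and 2 in Flag alone (5.26%, against 2.02%), counts too small to set against a background.

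**Figure D2:**
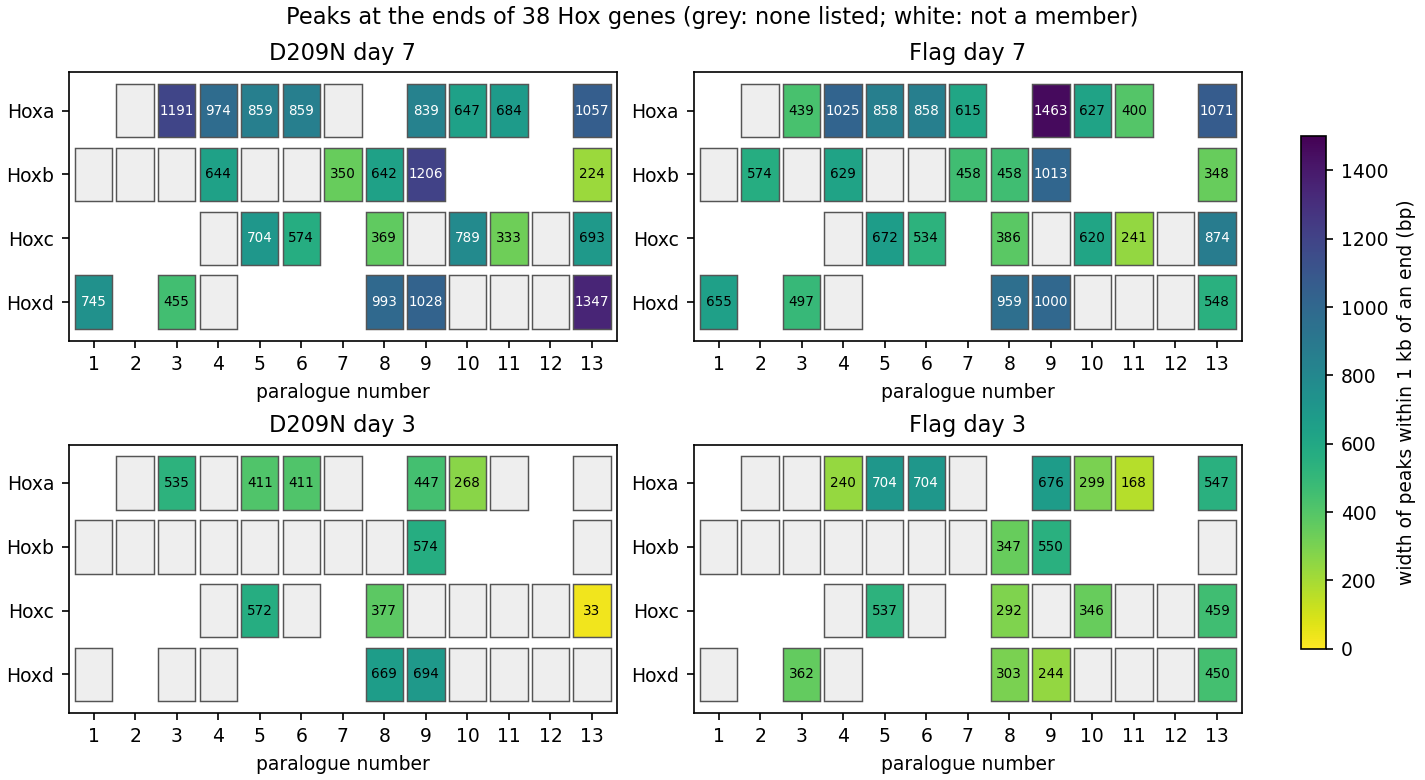
Hox genes laid out by cluster (rows) and paralogue number (columns) in 4 panels, D209N and Flag at day 7 above D209N and Flag at day 3. The colour and number in a cell give the width in bp of the peaks within 1 kb of the gene's ends, grey cells have no such peak and white places hold no gene of the set; 24 and 26 cells are filled at day 7 and 11 and 17 at day 3.

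Gene-end peaks in all 4 lists were found at 10 of 38 genes, which lie in the middle and posterior parts of the clusters: Hoxa5, Hoxa6, Hoxa9, Hoxa10, Hoxb9, Hoxc5, Hoxc8, Hoxc13, Hoxd8 and Hoxd9. The peaks of Hoxb9, the gene with the most gene-end bases of its cluster, covered 1206 bp in D209N and 1013 bp in Flag at day 7, against 574 bp in D209N and 550 bp in Flag at day 3. At Hoxd9 they covered 1028 bp in D209N and 1000 bp in Flag at day 7, and 694 bp in D209N and 244 bp in Flag at day 3. Both genes had wider peaks at day 7 in both arms, and at Hoxd9 the narrowest was that of Flag at day 3. Hoxd8 had 993 bp in D209N and 959 bp in Flag at day 7, and 669 bp in D209N and 303 bp in Flag at day 3, the same order as its neighbour. Hoxa5 and Hoxa6, trunk genes that lie end to end, were marked by the same peak, which covered 859 bp in D209N and 858 bp in Flag at day 7, and 411 bp in D209N and 704 bp in Flag at day 3. This peak lies over the Hoxa5 promoter printed above. Hoxa9, whose protein is widely studied in leukaemia, had 839 bp in D209N and 1463 bp in Flag at day 7, and 447 bp in D209N and 676 bp in Flag at day 3. The Flag value at day 7 sums 2 peaks, of 772 and 691 bp. The region of the second (chr6:52225754-52226444) also held 267 bp in D209N at day 7 and 393 bp in Flag at day 3, outside the window. In the region that marked Hoxa9 in all 4 lists, the arms at day 7 were close, with 839 bp in D209N and 772 bp in Flag. Hoxa10, which acts in the lumbar spine and uterus, had 647 bp in D209N and 627 bp in Flag at day 7, and 268 bp in D209N and 299 bp in Flag at day 3. In these posterior Hoxa genes both lists of day 7 were wider than both lists of day 3. Hoxc5 had 704 bp in D209N and 672 bp in Flag at day 7, and 572 bp in D209N and 537 bp in Flag at day 3. Hoxc8 hardly varied, with 369 bp in D209N and 386 bp in Flag at day 7, and 377 bp in D209N and 292 bp in Flag at day 3. Hoxc13, a gene of hair and nail and the outermost of its cluster, had 693 bp in D209N and 874 bp in Flag at day 7, and 33 bp in D209N and 459 bp in Flag at day 3.

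A second set, 7 of 38 genes, was marked in every list but D209N at day 3: Hoxa4, Hoxa11, Hoxa13, Hoxb8, Hoxc10, Hoxd3 and Hoxd13. They come from all 4 clusters, and 4 of them are posterior genes. Hoxa13, which with Hoxd13 patterns the digits and the urogenital tract, had 1057 bp in D209N and 1071 bp in Flag at day 7, and 0 bp in D209N and 547 bp in Flag at day 3. Its region (chr6:52259986-52261206) spans the promoter shown above and is the widest of its class in Hoxa. Hoxd13 had 1347 bp in D209N and 548 bp in Flag at day 7, and 0 bp in D209N and 450 bp in Flag at day 3, over a region (chr2:74667277-74668729) at the outer edge of Hoxd. Here D209N had the widest peak of the 4 lists at day 7 and none at day 3. The Flag peaks of day 3 and day 7 did not overlap each other in this region and were joined only through the D209N peak of day 7. The region therefore counts below as listed on both days in Flag through the merging alone. Hoxa4 had 974 bp in D209N and 1025 bp in Flag at day 7, and 0 bp in D209N and 240 bp in Flag at day 3. Its values at day 7 sum 2 peaks in each arm. Hoxa11, a limb and kidney gene, had 684 bp in D209N and 400 bp in Flag at day 7, and 0 bp in D209N and 168 bp in Flag at day 3. Hoxc10 had 789 bp in D209N and 620 bp in Flag at day 7, and 0 bp in D209N and 346 bp in Flag at day 3 (region chr15:102966379-102967167). In all of these Flag at day 3 had the fewest bases of the 3 lists. Hoxd3 had 455 bp in D209N and 497 bp in Flag at day 7, and 0 bp in D209N and 362 bp in Flag at day 3. Hoxb8 had 642 bp in D209N and 458 bp in Flag at day 7, and 0 bp in D209N and 347 bp in Flag at day 3. For none of the 7 did the D209N list of day 3 hold any peak in the marked region, so these states do not rest on the edge of the 1 kb window.

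Hoxa3, an anterior gene needed for the thymus and parathyroid, was the 1 gene marked in every list but Flag at day 3, with 1191 bp in D209N and 439 bp in Flag at day 7, and 535 bp in D209N and 0 bp in Flag at day 3. The D209N value at day 7 sums 2 peaks, of 592 and 599 bp. The region of the first (chr6:52211450-52212096) also held 613 bp in Flag at day 7, in a peak just outside the window. The gap between the arms at day 7 thus rests partly on the edge of the window. A Flag peak of day 3 lay 1025 bp from its end, just outside the window. The region over its start (chr6:52212818-52213488) was nevertheless without a Flag peak at day 3, where D209N had 535 bp.

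A further 6 of 38 genes were marked in both lists of day 7 and in neither of day 3: Hoxb4, Hoxb7, Hoxb13, Hoxc6, Hoxc11 and Hoxd1. Hoxd1, at the anterior end of its cluster, had 745 bp in D209N and 655 bp in Flag at day 7 and 0 bp in both at day 3, over its promoter (region chr2:74762741-74763487). Hoxb4, studied for its effect on blood stem cells, had 644 bp in D209N and 629 bp in Flag at day 7 and 0 bp in both at day 3 (region chr11:96318445-96319226). At both genes the arms were alike within each day. Hoxb13, a prostate and tail gene far from the rest of Hoxb, had narrow peaks of 224 bp in D209N and 348 bp in Flag at day 7. Hoxc11 had 333 bp in D209N and 241 bp in Flag at day 7, in different regions. Hoxb7 had 350 bp in D209N and 458 bp in Flag at day 7; in Flag a peak of the same region lay 1006 bp from its end at day 3. Hoxc6 had 574 bp in D209N and 534 bp in Flag at day 7, and peaks of the same region lay 1215 bp (D209N) and 1120 bp (Flag) from its end at day 3, so its change reflects where the peak stops. Another 2 of 38 genes were marked in Flag at day 7 alone: Hoxb2, with 574 bp (region chr11:96352842-96353415), and Hoxa7, with 615 bp. The D209N list of day 7 held a peak 1008 bp from Hoxa7, so only Hoxb2 differed by the presence of a peak. Leaving out such edge cases, 12 genes in D209N and 6 in Flag gained a region at an end by day 7, and at day 3 the 7 genes marked in Flag alone all remained.

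The remaining 12 of 38 genes had no gene-end peak in any list: Hoxa2, Hoxb1, Hoxb3, Hoxb5, Hoxb6, Hoxc4, Hoxc9, Hoxc12, Hoxd4, Hoxd10, Hoxd11 and Hoxd12. Of these, Hoxa2, Hoxb1, Hoxb5, Hoxc12, Hoxd4 and Hoxd12 also had no peak anywhere on the gene or within 1 kb of it. Hoxb1 and Hoxa2 are hindbrain genes, and Hoxb1 ends its cluster. The other 6 had peaks inside the annotated span only. Hoxc9, Hoxd10 and Hoxd11 each had 1 such peak in all 4 lists. At Hoxd10 it lies over an inner start, the one whose promoter is printed above, and at Hoxd11 over the second of its starts, whose window holds 25 CpG; the rule on outer ends misses both. Hoxb3 held 3 peaks in D209N and 4 in Flag at day 7, and 0 in D209N and 1 in Flag at day 3. Hoxc4 held 2 peaks in each arm at day 7, and 0 in D209N and 2 in Flag at day 3. Hoxb6 held 1 in each arm at day 7 and 0 in each at day 3. In these 3 genes D209N at day 3 held no peak.

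By place in the cluster, the share marked at day 7 was highest in the central genes (8 of 11 in D209N and 9 of 11 in Flag) and the posterior genes (11 of 16 in each arm), and lowest in the anterior genes (5 of 11 in D209N and 6 of 11 in Flag). At day 3 the counts were 5 (D209N) and 6 (Flag) of 11 central genes, 5 (D209N) and 9 (Flag) of 16 posterior genes, and 1 (D209N) and 2 (Flag) of 11 anterior genes. The posterior genes, the largest group, gave 4 of the net 6 genes by which the arms differed at day 3. Among the anterior genes Hoxa4 and Hoxd3 were marked in Flag alone at day 3. They were partly offset by Hoxa3, whose Flag peak of day 3 lay just outside the window. By cluster, 8 (D209N) and 9 (Flag) of 10 Hoxa genes were marked at day 7 and 5 (D209N) and 7 (Flag) at day 3. In Hoxb, 5 (D209N) and 6 (Flag) of 10 were marked at day 7 and 1 (D209N) and 2 (Flag) at day 3. In Hoxc, 6 of 9 in each arm were marked at day 7, and 3 (D209N) and 4 (Flag) at day 3. In Hoxd, 5 of 9 in each arm were marked at day 7, and 2 (D209N) and 4 (Flag) at day 3. Every cluster had more marked genes at day 7 than at day 3 in both arms, and fewer in D209N than in Flag at day 3. None of these differences by place was tested.

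Counted as peaks over the whole extended clusters, the same order held. The 4 clusters together held 55 peaks in D209N and 57 in Flag at day 7, and 19 in D209N and 37 in Flag at day 3. They covered 29.9 kb in D209N and 31.3 kb in Flag at day 7, and 8.06 kb in D209N and 14.9 kb in Flag at day 3. Per 100 kb the clusters held 8.53 peaks in D209N and 8.84 in Flag at day 7, and 2.95 in D209N and 5.74 in Flag at day 3, against 1.49, 1.56, 1.07 and 1.34 for the chromosomes in the same order. The clusters are thus dense in listed peaks in every list. Day 7 over day 3 the count was 2.89-fold in D209N and 1.54-fold in Flag, where the whole lists gave 1.39-fold and 1.17-fold. With peaks under their list's median width left out, the clusters held 18 more peaks at day 7 than at day 3 in D209N and 23 more in Flag, so which arm changed more between days depended on narrow peaks. D209N over Flag the ratio was 0.965 at day 7 (whole lists 0.953) and 0.514 at day 3 (whole lists 0.802). As a share of the peaks of both arms at day 3, D209N held 33.9% (interval 22.9 to 47.0%) in the clusters and 44.5% over the whole lists, a value inside that interval.

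**Figure D3:**
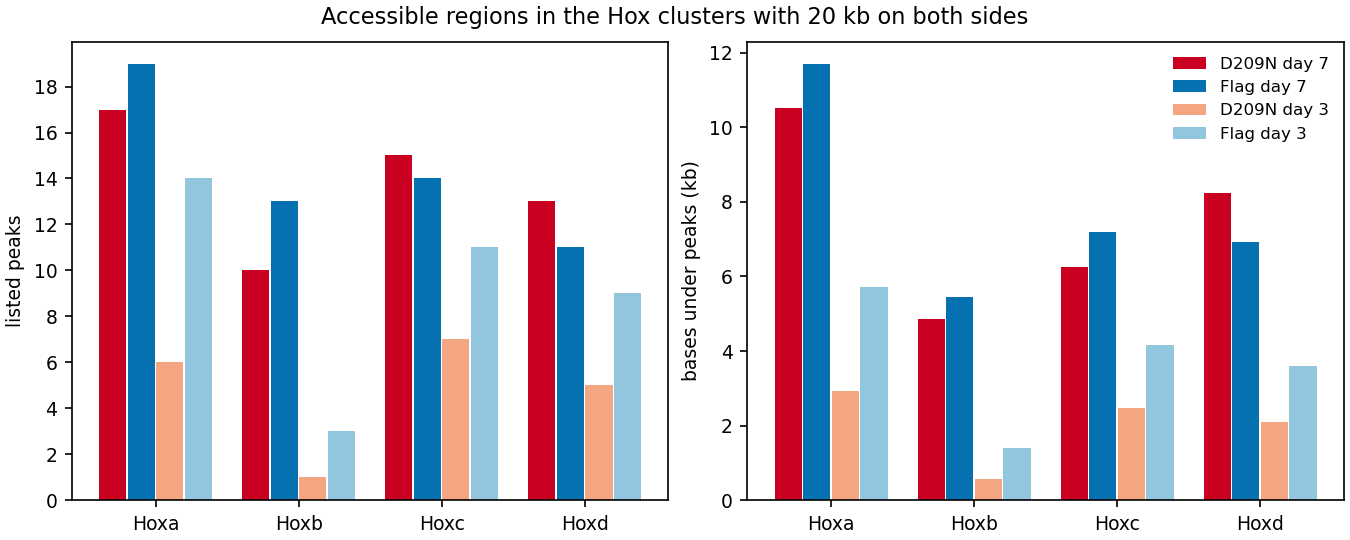
Listed peaks (left) and bases under peaks in kb (right) in the 4 Hox clusters with 20 kb on both sides, for D209N and Flag at day 7 and at day 3. Bars are single counts with no replicates; Hoxb holds 10 and 13 peaks at day 7 and 1 and 3 at day 3, and Hoxa 17 and 19 at day 7 and 6 and 14 at day 3.

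The numbering of the peak names bears on the day 3 comparison. Names carry serial numbers in order along the chromosome, and the lists skip part of them: 73.0% (D209N) and 78.5% (Flag) of the numbers were present at day 7, and 79.5% (D209N) and 90.0% (Flag) at day 3. Across the Hox clusters, with each name counted once, the numbers present were 54 of 76 in D209N (71.1%) and 57 of 70 in Flag (81.4%) at day 7, and 19 of 39 in D209N (48.7%) and 37 of 43 in Flag (86.0%) at day 3. These numbers were counted from the last listed peak before each extended cluster to the first listed peak after it. Skipped names have no position, so some may lie outside the clusters, and the stretch counted differs between lists. The 39 names of D209N and the 43 of Flag at day 3 are thus upper limits for the clusters. Of these D209N lists fewer. The step that removed these names is not recorded in the headers or labels, and its part in the 19 against 37 peaks, and in the 7 genes marked in Flag alone, was not tested. By numbered names, D209N over Flag at day 3 gave a ratio of 0.907 over these stretches and 0.907 over the whole lists. Day 7 over day 3, numbered names gave 1.95 in D209N (whole lists 1.51) and 1.63 in Flag (whole lists 1.34). By this count, the excess of these stretches over the whole lists was smaller in D209N than by listed peaks.

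The clusters differed in how peaks lay along them. Hoxb, on chromosome 11 and with 173.9 kb between its outermost ends the longest, held 10 peaks in D209N and 13 in Flag at day 7, and 1 in D209N and 3 in Flag at day 3. Its single D209N peak of day 3 is that of Hoxb9. The longest stretch of the extended cluster with no listed peak was 57.2 kb in D209N and 48.0 kb in Flag at day 7, and 116 kb in D209N and 97.3 kb in Flag at day 3. Hoxa, on chromosome 6 (98.5 kb), held 17 in D209N and 19 in Flag at day 7, and 6 in D209N and 14 in Flag at day 3, with longest empty stretches of 15.5 kb in D209N and 15.7 kb in Flag at day 7, and 45.0 kb in D209N and 19.7 kb in Flag at day 3. Hoxc, on chromosome 15 (115.7 kb), held 15 in D209N and 14 in Flag at day 7, and 7 in D209N and 11 in Flag at day 3. Hoxd, on chromosome 2 (96.9 kb), held 13 in D209N and 11 in Flag at day 7, and 5 in D209N and 9 in Flag at day 3. In Hoxd the peaks of D209N at day 3 ran over the middle of the cluster, with 68.9 kb empty at its anterior side. At day 7 D209N was above Flag in Hoxc and Hoxd and below it in Hoxa and Hoxb, by 1 to 3 peaks.

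**Figure D4:**
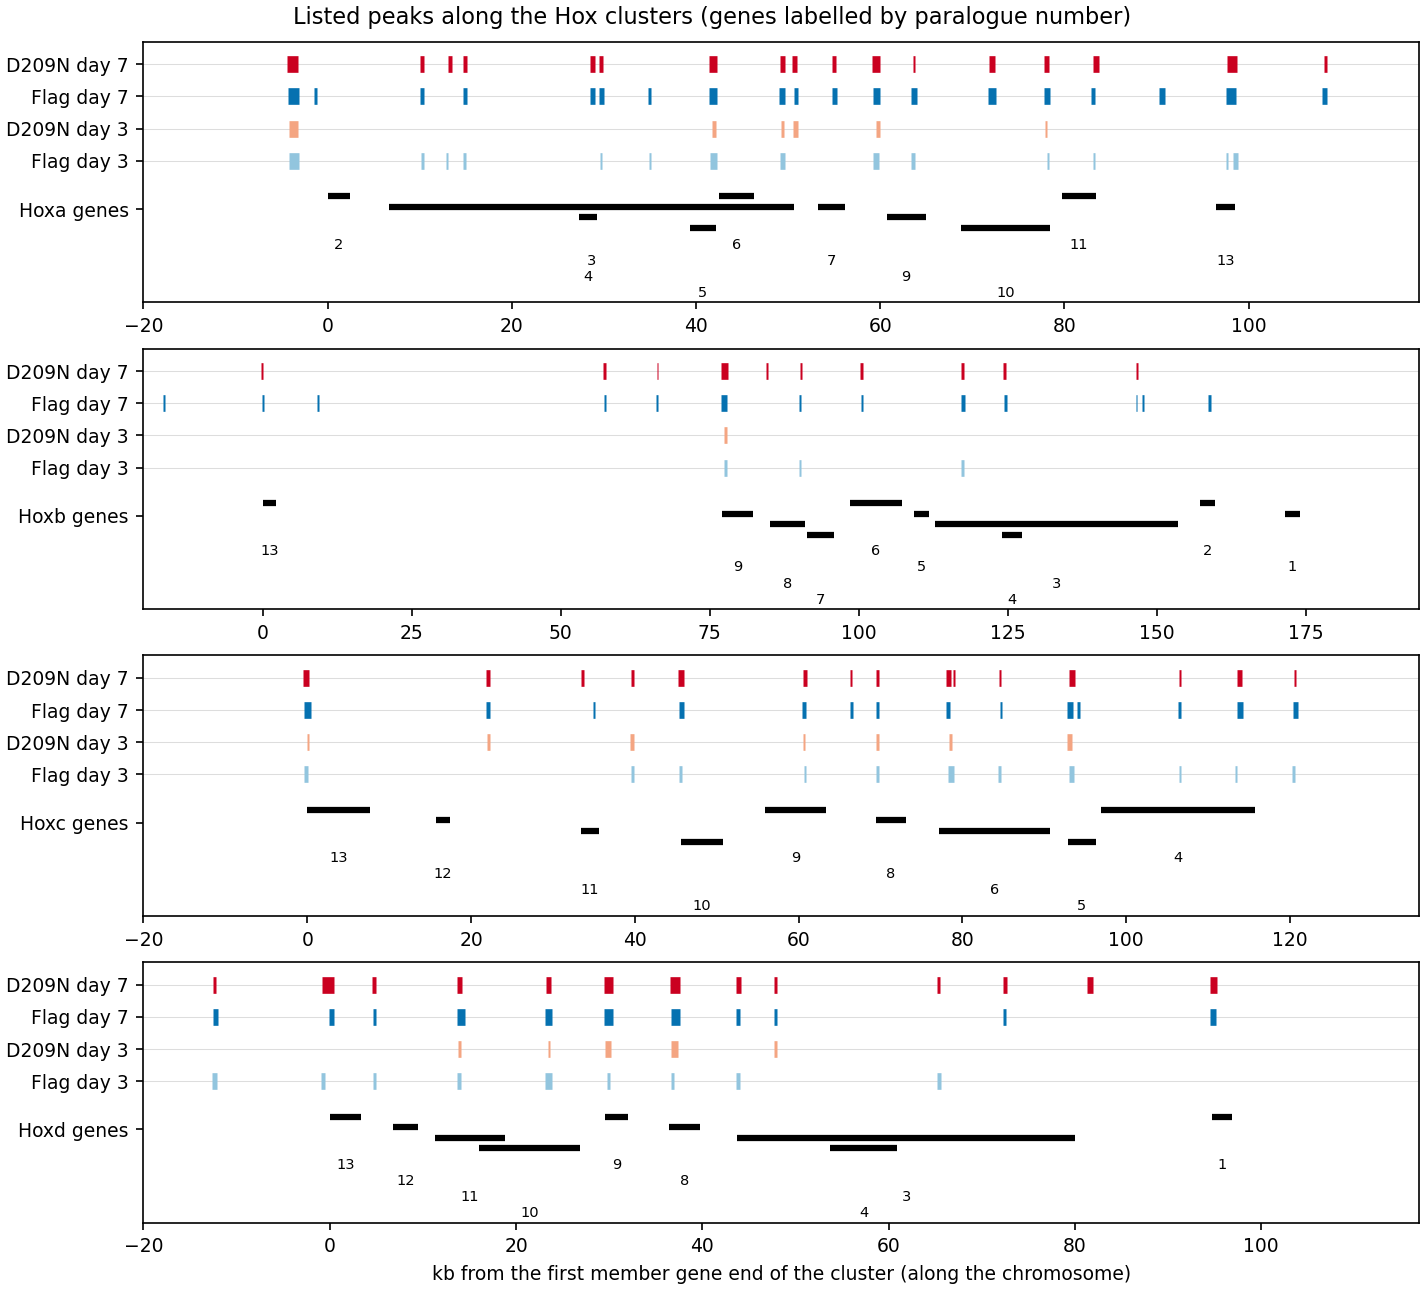
Maps of the Hoxa, Hoxb, Hoxc and Hoxd clusters, drawn to scale in kb from the first gene end of each, with 4 rows of listed peaks (D209N and Flag at day 7, D209N and Flag at day 3) above the annotated spans of the genes, labelled by paralogue number. Peaks under 0.25 kb are drawn 0.25 kb wide; Hoxb shows 1 peak for D209N at day 3 and 10 at day 7, and Hoxd is empty for D209N at day 3 over Hoxd4 and Hoxd1.

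Merged over the 4 lists, the clusters held 66 accessible regions out of 55274 in the genome, 30 of them within 1 kb of a member's end and 36 elsewhere. Those at gene ends were listed 27 times in D209N and 27 in Flag at day 7, and 12 in D209N and 20 in Flag at day 3. Those elsewhere were listed 27 times in D209N and 30 in Flag at day 7, and 7 in D209N and 17 in Flag at day 3. Many of the regions elsewhere lie on a Hox gene, since 49 of the 66 regions touched one. Regions present in all 4 lists numbered 15 (22.7% of the Hox regions, against 39.4% of all regions). Regions in both lists of day 7 and neither of day 3 numbered 14 (21.2%, against 12.9%), those in all but D209N at day 3 numbered 16 (24.2%, against 8.07%), and those in all but Flag at day 3 numbered 3 (4.55%, against 2.27%). None of the Hox regions (0 of 66) was in both lists of day 3 and neither of day 7, a class that holds 4.69% of all regions. In D209N 35 regions appeared by day 7 (53.0%, against 29.1%) and 0 disappeared (8.37% of all regions). In Flag 25 appeared (37.9%, against 25.9%) and 5 disappeared (7.58%, against 14.8%). Peaks side by side that shared no base were kept as separate regions, so a shifted peak can count as 1 region that disappeared and another that appeared. In Flag this was so inside Hoxc4, at chr15:103034443-103034611 (day 3) and chr15:103034634-103035377 (day 7). At day 7 the arms shared 48 regions (72.7%, against 62.6%), with 6 in D209N alone (9.09%, against 10.1%) and 9 in Flag alone (13.6%, against 13.5%), close to the background. At day 3, 3 regions were in D209N alone (4.55%, against 5.11%) and 21 in Flag alone (31.8%, against 18.1%).

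Away from gene ends, the widest regions of these classes lay between genes or inside long ones. In Hoxa a region 2862 bp from an end of Hoxa10 (chr6:52234059-52234970) had 696 bp in D209N and 912 bp in Flag at day 7 and none at day 3. It abuts an inner start of Hoxa10, whose window overlaps it. In Hoxb a region inside Hoxb3 (chr11:96311442-96312076) had 542 bp in D209N and 635 bp in Flag at day 7, and 0 bp in D209N and 509 bp in Flag at day 3. In Hoxc a region 1479 bp inside Hoxc4 (chr15:103034634-103035377) had 568 bp in D209N and 744 bp in Flag at day 7 and none at day 3. The Hoxb3 and Hoxc4 regions both lie inside long genes with none of their own gene-end peaks. A Flag peak of day 3 (chr15:103034443-103034611, 169 bp) lay directly beside the Hoxc4 region without sharing a base. The class of the Hoxc4 region in Flag thus rests on the merging rule. A region between Hoxc12 and Hoxc11 (chr15:102942955-102943489) had 432 bp in D209N and 524 bp in Flag at day 7, and 319 bp in D209N and 0 bp in Flag at day 3. It lies next to the end of Hotair, a long noncoding RNA of Hoxc that was marked in every list but Flag at day 3. A region 3781 bp from Hoxc11 (chr15:102960482-102961038) was in every list but Flag at day 7, with 337 bp in D209N at day 7, and 557 bp in D209N and 355 bp in Flag at day 3. In Hoxd a region 1268 bp from an end of Hoxd3 (chr2:74749539-74750125) was in D209N at day 7 alone, with 587 bp, and a region inside Hoxd3 (chr2:74733447-74733816) had 256 bp in D209N at day 7 and 370 bp in Flag at day 3 and was in neither other list.

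Regions listed on both days were wider at day 7. In D209N 17 of 19 such Hox regions were wider at day 7 than at day 3, with a median ratio of 1.48, and over the genome 77.8% were wider with a median ratio of 1.23. In Flag 30 of 32 were wider, with a median ratio of 1.49, against 66.6% and 1.10 over the genome. By ratio, the widening in the clusters was thus beyond that of all shared regions in both arms. The Hox regions were narrower at day 3, with medians of 411 bp in D209N and 378 bp in Flag, against 513 and 547 bp over the genome. At day 7 the medians were 618 bp in D209N and 616 bp in Flag, against 666 and 613 bp. The part of the narrower day 3 widths in the ratios was not tested. Between the arms, 24 of 48 shared regions were wider in D209N than in Flag at day 7 (median ratio 0.995, genome 1.00), and 6 of 16 at day 3 (0.777, genome 0.902). The 21 Hox regions of Flag at day 3 that D209N lacked had a median width of 323 bp, against 498 bp for the 16 it shared, and over the genome these medians were 288 bp and 578 bp. Regions missing from D209N were therefore the narrower ones in the clusters as elsewhere. The median width of all listed peaks in the clusters was 472 bp in D209N and 534 bp in Flag at day 7, and 411 bp in D209N and 355 bp in Flag at day 3. Peak width depends on the sequencing depth and the peak caller, which the lists do not give.

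**Figure D5:**
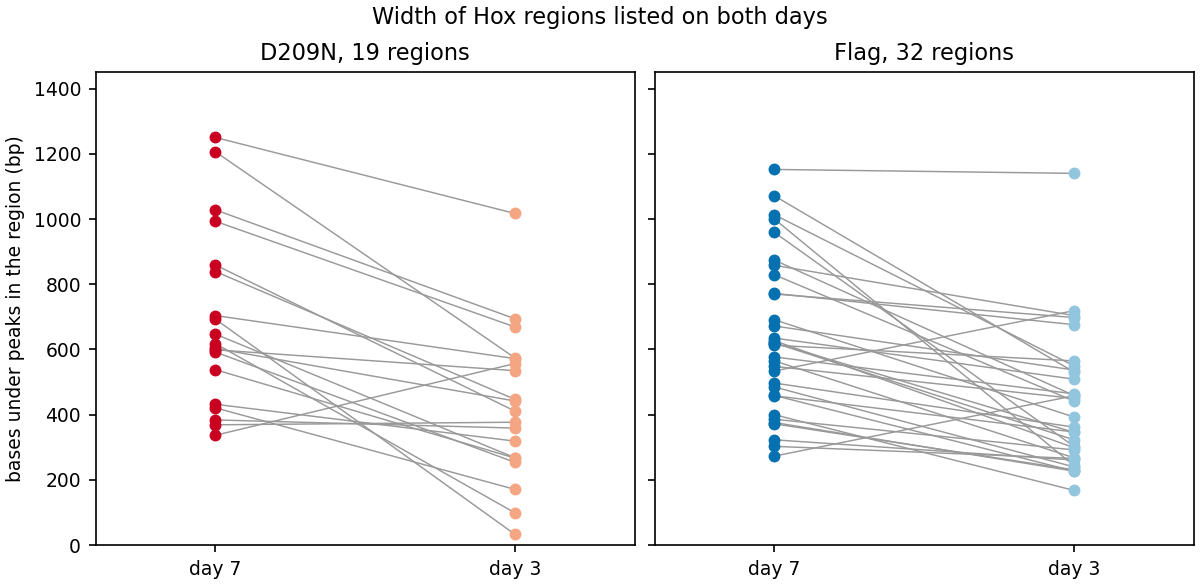
Bases under peaks in each Hox region listed on both days, in bp, for D209N (19 regions, left) and Flag (32 regions, right), with day 7 left of day 3 in each panel and a line joining the values of 1 region. In D209N 17 of 19 regions and in Flag 30 of 32 are wider at day 7.

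Other genes tied to Hox control were taken by role. The TALE cofactors, which bind DNA together with Hox proteins, were marked at 10 of 10 genes in each arm at day 7, and at 9 (D209N) and 8 (Flag) at day 3. Meis3 was marked at day 7 only and Pbx2 in all lists but Flag at day 3, while Meis1, Meis2 and Pbx3 were marked in all 4. The PRC2 genes, which write the repressive Polycomb mark, were marked at 11 of 11 genes in each arm at day 7, and at 11 (D209N) and 10 (Flag) at day 3, where Phf19 was without one. The Trithorax list, whose members oppose Polycomb, was marked at 6 of 10 genes in every list, among them Kmt2a and Kmt2b. In the retinoic acid list the counts changed with the days: 6 of 8 genes were marked in each arm at day 7 (75.0%, interval 40.9 to 92.9%). At day 3, 1 was marked in D209N (12.5%, 2.24 to 47.1%) and 3 in Flag (37.5%, 13.7 to 69.4%). The intervals of the days overlap in both arms. All coding genes had 60.4% (D209N) and 61.5% (Flag) at day 7, and 51.7% and 55.9% at day 3. Retinoic acid is the classical inducer of anterior Hox genes. Its receptor gene Rarg was marked in all 4 lists, Rxra and the synthetic enzyme Aldh1a2 in all but D209N at day 3, and Rara and the degrading enzymes Cyp26b1 and Cyp26c1 at day 7 only. Rarb and Cyp26a1 were marked in none. Of the Cdx genes, which act upstream of central Hox genes, Cdx2 was marked in both arms at day 7 and none at day 3, and Cdx1 and Cdx4 in no list.

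Of the genes that flank the clusters, Lnpk, Mtx2 and Skap2 were marked in all 4 lists, and the homeobox genes Evx1 and Evx2 in none. Genes marked at day 3 could not be newly marked, so these 3 neighbours say nothing of a change between days. Of 9 noncoding genes of the clusters, Hotairm1 and Mir615 were marked in all 4 lists and Hotair in 3, and Hottip, Mir10a, Mir10b, Mir196a-1, Mir196a-2 and Mir196b in none. Mir615 lies on chromosome 15 at 103014910 to 103015001, inside Hoxc5 and 63 bp from the region that marks that gene in all 4 lists. Its mature sequences in RefSeq are shown because it is the only miRNA of the clusters' 6 with a peak within 1 kb of an end, with the seed (bases 2 to 8) in capitals.
miR-615-5p: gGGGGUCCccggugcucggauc
miR-615-3p: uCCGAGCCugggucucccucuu

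The 4 other families of developmental transcription factors taken for comparison, Tbx, Pax, Irx and Lhx, were marked at 19 of 36 genes in D209N (52.8%, interval 37.0 to 68.0%) and 21 in Flag (58.3%, 42.2 to 72.9%) at day 7, and at 10 in D209N (27.8%, 15.8 to 44.0%) and 15 in Flag (41.7%, 27.1 to 57.8%) at day 3. The Hox shares, 63.2% in D209N and 68.4% in Flag at day 7 and 28.9% in D209N and 44.7% in Flag at day 3, were higher in each list, and all 4 lie inside these intervals. Lower shares at day 3 than at day 7, with the lowest in D209N at day 3, were thus seen in these families too.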

How the data were processed

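ATAC-seq libraries of 4 groups were analysed through 1 deposited peak list per group. Per the submitters' processing notes, the series used CASAVA, Bowtie2 2.3.2 and the builds mm10 and GRCm38.p5, with no role or order given. Neither labels nor headers record the peak caller, its threshold, the read depth or whether both libraries of a group entered its list, and all peak names carry the tag of replicate 1. The deposited lists hold peak starts and ends in bp on mm10 coordinates, read as the authors gave them, with no score. The serial number in each peak name was also read, as a count of numbered peaks.

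Starts were moved to 1-based positions and peaks kept on chromosomes 1 to 19, X and Y. Gene spans came from the RefSeq table of GRCm38.p6, which shares the coordinates of GRCm38 and holds no strand. A gene-end peak overlapped by at least 1 bp the window of 1 kb on either side of an annotated end. Lists were merged into regions where peaks shared at least 1 bp. Chromosome lengths for the density of peaks were taken as the last annotated gene or peak end. RefSeq promoter windows were matched by symbol. With 1 list per group no test was run. The genes named with values were those whose state was not the same in the 4 lists, those marked in none, those with the most gene-end bases or at the ends of a cluster, and the widest region of each class in each cluster. The members, lists and rules were chosen with earlier results of these data known. Alternatives were other windows, cluster extensions, overlaps and width limits, and the start alone. The interval code was tested on simulated data. Work was done in Python 3.11.15 with numpy 2.4.6, pandas 2.3.3, scipy 1.17.1 and matplotlib 3.10.9. RNA-seq, R-loop and CLIP libraries of the series were not analysed here. Some genes of the comparison lists are not reported here and are left out of their counts.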

Additional observations from a re-analysis of the deposited data

How the results depend on the processing

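The 4 lists have no score, depth or replicates, so weak peaks could not be set apart except by width, no library could be left out, and the lists' depths limit every absence of a peak. No paired analysis was possible because each group has 1 list. The order of day 7 above day 3 held in both arms, for genes and for peaks, under all alternatives run. Other extensions (none or 50 kb), a window of 2 kb, peak centres in place of overlap and a stricter merging of peaks turned no difference round, but without extension the arms differed by 0 peaks at day 7, with 2 kb by -9 genes at day 3 (reported -6), and with peak centres the days by 6 genes in Flag (reported 9). With a window of 500 bp the difference D209N minus Flag in marked genes at day 7 turned to 1, where it had been -2, and the days differed by 5 genes in Flag. Counting starts alone, over the 22 genes with a known strand, 14 were marked in D209N and 16 in Flag at day 7, and 7 in D209N and 11 in Flag at day 3, and the days differed by 7 in D209N and 5 in Flag; fewer genes enter this count by construction. With peaks at or above their list's median width only, 5 genes were marked in D209N and 6 in Flag at day 3, and the clusters held 25 peaks in D209N and 33 in Flag at day 7, and 7 in D209N and 10 in Flag at day 3, so the arms differed by -3 peaks at day 3. The days then differed by 18 peaks in D209N and 23 in Flag (36 and 20 as reported) and by 13 genes in each arm (13 and 9 as reported), so a larger day change in D209N was not kept; fewer peaks enter this count by construction. Counting numbered names in place of listed peaks was a choice made after seeing the data, and some of these names may lie outside the clusters. By this count D209N at day 3 had 39 and differed from Flag by -4. At day 7 the difference turned to 6, where the listed peaks gave -2. The cause was not tested.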
